A study of Mus musculus with 45 samples.

Results

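Egfr, Erbb2, Erbb3, Errfi1, Met, Fgfr4 and Klb, 7 genes that encode growth factor receptors of the liver and their direct partners, were followed by RNA sequencing of mouse liver. They were taken by gene symbol from the deposited count tables, in which all 7 were found among 23227 genes, and all 7 also passed the filter on low counts that left 14067 genes for testing. Whole livers came from wild-type C57BL/6J mice killed at 24 weeks of age after an overnight fast. The mice had eaten a high-fat diet (HFD) for 16 weeks, started at 8 weeks of age, an HFD for 6 weeks, started at 18 weeks of age, or chow throughout. Insulin at 1 U/kg was injected into the peritoneum of mice on the 16-week HFD and on chow, and their livers were taken 15, 30, 60 or 120 min later. Metformin, a biguanide that lowers blood glucose, was given without insulin to mice on the 16-week HFD, the 6-week HFD and chow, in the drinking water at 270 mg/kg of lean body mass per day, from 8 or 18 weeks of age. Basal mice on each of these 3 diets received neither drug. This makes 14 groups of 3 libraries each, except for 6 libraries at 30 min after insulin on the 16-week HFD, or 45 libraries with 18193181 to 50253493 counted reads. At least 3 mice per group were used, but no label ties a library to an animal, so each p-value measures the spread between these libraries only, and the sex of the mice is not stated. Nor is it stated whether basal mice were injected with vehicle. Each time after insulin was set against the basal group of its diet, so insulin cannot be told apart from injection or elapsed time. The 6 libraries at 30 min on the 16-week HFD fell into 2 sets, replicates 1 to 3 and replicates 4 to 6. Spearman's rho, across genes, of a library's log2 level relative to the mean of all libraries with GC content was 0.19 to 0.22 in the first set and -0.22 to -0.13 in the other, and summed adipocyte markers were 4.37 to 6.08 CPM and 27 to 56.2 CPM. Calls at 30 min that rest on this group are therefore also given without replicates 4 to 6, as values or as counts of members. For the average over times, values are given with all 6 libraries only. The GC trend was not confined to this group. In basal livers it was 0.28, 0.32 and 0.17 on the 16-week HFD and -0.08, -0.29 and -0.29 on chow. At 60 min on the 16-week HFD it was 0.07, 0.13 and -0.24. Diets thus differed in this trend too, and fits with length and GC trends removed served as an alternative.

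EGFR and ERBB3 bind the EGF and neuregulin families of ligands and, with ERBB2, which has no known ligand of its own, form the active pairs that turn on the RAS-ERK and PI3K pathways. MET, the receptor of hepatocyte growth factor (HGF), and EGFR drive hepatocyte division in the regenerating liver. FGFR4 needs the co-receptor beta-Klotho, encoded by Klb, to answer the gut hormone FGF15, which lowers bile acid synthesis after a meal, and beta-Klotho paired with FGFR1 is the receptor of FGF21. Errfi1 encodes MIG6, an inhibitor that binds the active kinases of the EGFR family and shuts them off.

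The 7 transcripts spanned a wide range of levels, which are given as CPM, the reads of a gene per 1000000 reads of the scaled library, and as CPM per kilobase of exon where genes are compared. Errfi1, the intracellular inhibitor, stood highest at 519.7 CPM per kb on average over the 45 libraries, rank 128 of the 14067 genes tested. Egfr followed at 35.2 CPM per kb, Erbb3 at 19.6, Met at 15.8, Fgfr4 at 11.7 and Klb at 11.4 CPM per kb. Erbb2 stood far below the others at 0.283 CPM per kb, rank 12398, and rested on 9 to 76 reads in a library. Fold changes of Erbb2 therefore carry more counting error than those of the other members.

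**Figure D1:**
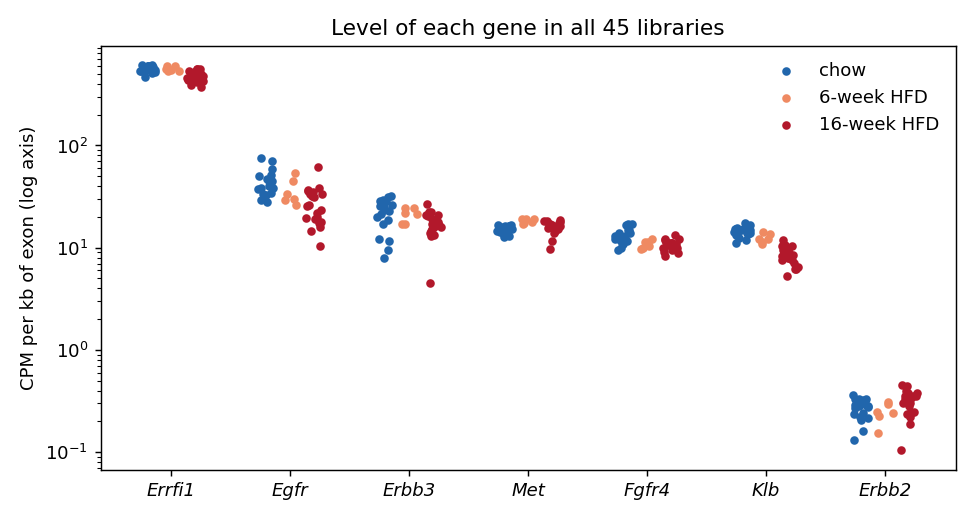
Level of each of the 7 genes in CPM per kb of exon, on a log axis, with 1 point for each of the 45 libraries, coloured by diet. Errfi1 lies above all other members and Erbb2 below them on every diet, while Egfr and Erbb3 are the most widely spread of the 5 genes between them.

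How far the levels moved across the 14 groups differed from gene to gene. Egfr had the widest range of group means, 3.51-fold between 114 CPM on the 16-week HFD with metformin and 400.1 CPM on chow 30 min after insulin. Erbb3 spanned 3.09-fold, from 38.9 CPM on chow 120 min after insulin to 120.3 CPM on chow with metformin, and Klb 2.3-fold, from 22.5 CPM on the 16-week HFD 120 min after insulin to 52 CPM on chow 60 min after insulin. Erbb2 spanned 2.06-fold, Fgfr4 1.51-fold, Met 1.29-fold and Errfi1 1.28-fold. Egfr was also the least even within groups, with a median SD of 0.467 on the log2 scale, against 0.16 for Erbb3, 0.144 for Klb and 0.0877 for Errfi1. When the 14 group means of a gene were put in order, neighbours lay within the sum of their SDs in 13 of 13 pairs for 6 of the genes and in 12 of 13 for Erbb3. The exception was the step between chow 15 min after insulin (98.4 ± 6.21 CPM) and chow basal (116 ± 0.994 CPM; SD, n = 3 each). Sorting alone puts neighbours close, so this describes single steps only and does not show that groups further apart were alike.

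In mm9, the build of the deposited gene models, Egfr lies at chr11:16652206-16813910 on the plus strand, in 28 exon blocks, and Erbb2 further along the same chromosome at chr11:98273798-98299030, plus strand. Erbb3 lies at chr10:128006424-128026557 on the minus strand, Errfi1 at chr4:150229200-150242989, Met at chr6:17413957-17523980, Fgfr4 at chr13:55254179-55270120 and Klb at chr5:65739650-65775242, the last 4 on the plus strand. Of the 40-base words in the Egfr exons, 0.38% also occur in another gene, and none do for the other members. Erbb2 shares 9 exon bases with 1810046J19Rik on the opposite strand, and reads were not assigned by strand in these libraries.

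Long high-fat feeding lowered Klb and Erbb3 in fasted livers without insulin. Klb, the beta-Klotho co-receptor, measured 22.5, 24.6 and 27.8 CPM on the 16-week HFD, against 46.2, 51.4 and 52.9 CPM on chow. Every HFD library lay below every chow library. Klb was 0.498 of the chow level, a log2 fold change of -1 ± 0.16 (SE; adjusted p = 1.57e-05, edgeR's quasi-likelihood test with Benjamini-Hochberg adjustment over all 14067 genes, used for every adjusted p here unless another is named). Erbb3, the neuregulin receptor, measured 63.6, 83.1 and 71.7 CPM on the 16-week HFD, against 117, 116 and 115 CPM on chow. These groups did not overlap either, and Erbb3 fell by 0.67 ± 0.23 on the log2 scale (SE; adjusted p = 0.0238). These were the 2 of 7 members called, where 32.3% of all genes tested were called, so that the count is near the background. The median log2 fold change was -0.25 over the members and 0.02 over all genes.

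The other 5 members were not called at 16 weeks. Errfi1 measured 1588, 1444 and 1117 CPM on the 16-week HFD, against 1666, 1603 and 1674 CPM on chow, with a log2 fold change of -0.25 ± 0.12 (adjusted p = 0.0994). Egfr, with 237, 209 and 94.7 CPM on the 16-week HFD against 216, 241 and 291 CPM on chow, overlapped between the diets (log2 fold change -0.47, 95% interval -1.17 to 0.24). The intervals were narrower for Met (0.14, -0.16 to 0.44) and Fgfr4 (-0.03, -0.30 to 0.24), and wide for Erbb2 (0.18, -0.39 to 0.76). The Erbb3 call rested on few libraries. It was lost when chow replicate 1, 2 or 3 or HFD replicate 1 or 3 was left out, with an adjusted p of 0.0283 to 0.0939 over the 6 omissions, whereas Klb was called in 6 of 6.

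After 6 weeks of HFD the values lay between those of the other diets for both genes. Klb averaged 50.2 ± 3.53 CPM on chow, 39.3 ± 2.19 CPM after 6 weeks and 25.0 ± 2.68 CPM after 16 weeks of HFD (SD, n = 3 each). Erbb3 averaged 116 ± 0.994, 90.4 ± 6.85 and 72.8 ± 9.79 CPM in the same order. Against chow, 0 of 7 members were called at 6 weeks, where 11% of all genes were, and 1 member, Klb (log2 fold change -0.35 ± 0.16, adjusted p = 0.166), had an unadjusted p below 0.05; DESeq2 also called 0. Fitted on those 6 libraries alone, 2195 genes were called, against 1549 in the fit of all libraries. Among them were 3 members, Erbb3 and Klb lower and Met, the HGF receptor, higher (log2 0.31, adjusted p = 0.0176). The 16-week livers set against the 6-week livers gave 2 calls, where 10.2% of all genes were called. Klb fell by 0.65 ± 0.16 (adjusted p = 0.00942) and Errfi1 by 0.36 ± 0.12 on the log2 scale (adjusted p = 0.0456). Skeletal muscle markers moved in this comparison too, with 5 of 5 lower on the 16-week HFD. Their sum was 0.138, 0.117 and 0.0441 CPM in the 16-week libraries, with 2 of the 5 at 0 in all 3, and 1148, 163 and 2.91 CPM in the 6-week libraries. Their part in the result was not tested. Errfi1 lost its call without 16-week replicate 2 or 3 or without any 1 of the 6-week libraries (adjusted p up to 0.278), and Klb without 6-week replicate 1, the library with the highest muscle sum (-0.61, adjusted p = 0.051).

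**Figure D2:**
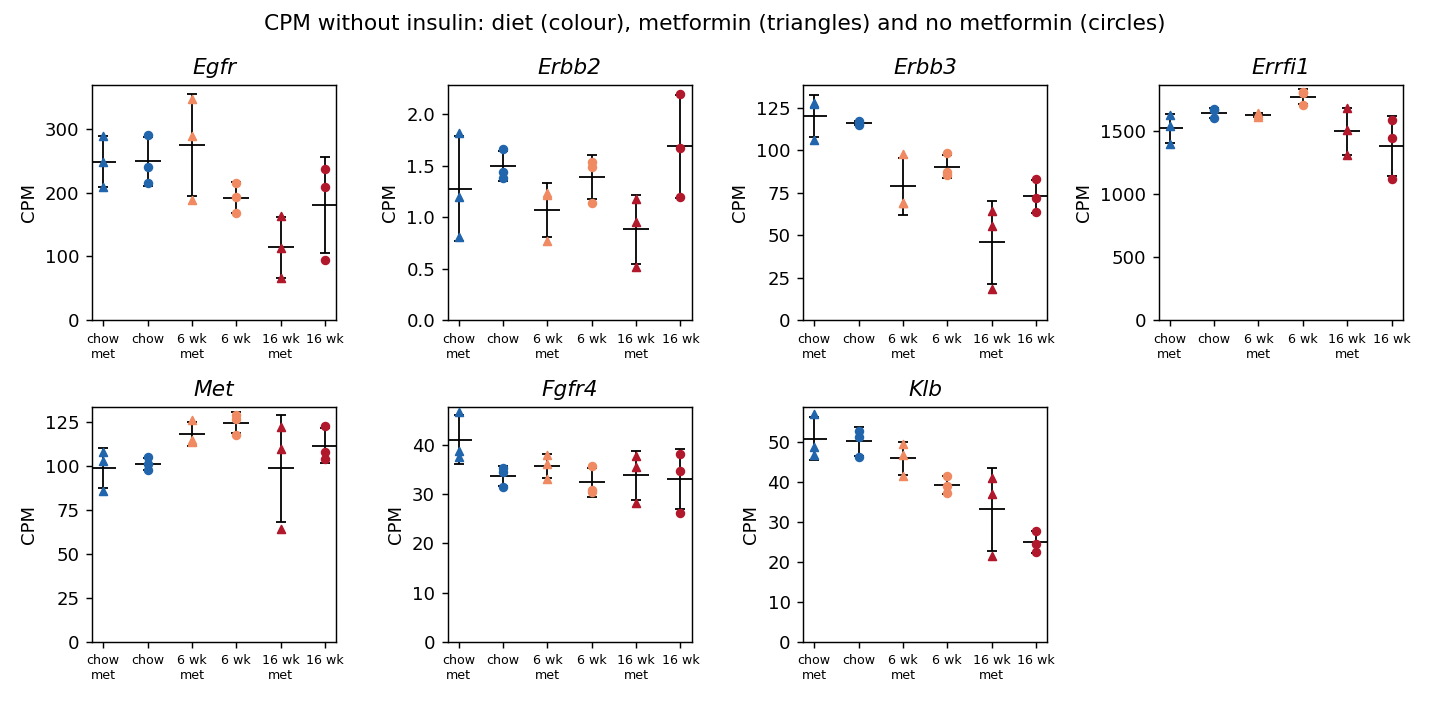
CPM of each gene in livers without insulin, with diets from chow to 6 and 16 weeks of HFD along the x axis; triangles are libraries with metformin, circles without, and black bars the mean ± SD of 3. Klb and Erbb3 step down with longer HFD feeding among the circles, and the lowest Erbb3 point, 18 CPM, is the first metformin library on the 16-week HFD.

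The diets were also compared after insulin, where Klb was lower on the 16-week HFD at each time. At 15 min it measured 26.1, 36.0 and 26.1 CPM on the HFD against 40.6, 42.9 and 38.1 CPM on chow (log2 -0.46, adjusted p = 0.0339). At 120 min it measured 21.1, 18.0 and 28.5 CPM on the HFD against 47.6, 48.0 and 60.1 CPM on chow, a fall of 1.20 ± 0.16 on the log2 scale (adjusted p = 4.18e-06). At 30 min the log2 fold change was -0.68 (adjusted p = 0.00024; -0.79, adjusted p = 0.00037 without HFD replicates 4 to 6), and at 60 min -0.71 (adjusted p = 0.00163). The libraries of the 2 diets did not overlap for Klb at any of the 5 times, the basal state included. The call at 15 min is the least firm, and was lost without any 1 of the 3 chow libraries or without HFD replicate 1 or 3 (adjusted p 0.0109 to 0.142).

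Egfr differed most between the diets 30 min after insulin. Its level was 116, 225, 122, 125, 129 and 152 CPM in the 6 libraries of the 16-week HFD, against 488, 453 and 259 CPM on chow. The groups did not overlap, and the log2 fold change was -1.47 ± 0.29 (adjusted p = 0.000201; 7.58e-05 to 0.0041 over the 9 omissions of 1 library). Without HFD replicates 4 to 6 it was -1.37 (adjusted p = 0.00351). Egfr was not called at 15, 60 or 120 min, where the log2 fold changes were -0.33, -0.57 and -0.18. Whether the diet difference at 30 min exceeded that in the basal state was tested as the difference of the insulin responses, which was -1 ± 0.46 on the log2 scale and not called (adjusted p = 0.31).

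Fgfr4, the FGF15 receptor, and Errfi1 were also lower on the HFD after insulin. Fgfr4 was called at 30, 60 and 120 min (log2 -0.30, -0.41 and -0.55, adjusted p = 0.0351, 0.0208 and 0.00234). At 120 min it measured 31.1, 35.8 and 33.5 CPM on the HFD against 40.8, 53.5 and 52.5 CPM on chow. The call at 120 min held in 6 of 6 omissions, while that at 30 min was lost without chow replicate 1 or 2 or HFD replicate 4 or 6 (adjusted p up to 0.171) and without HFD replicates 4 to 6 together (-0.26, adjusted p = 0.11), and that at 60 min without chow replicate 1 or HFD replicate 2 or 3 (adjusted p up to 0.118). Errfi1 was called at 15 min (log2 -0.35, adjusted p = 0.0292), a call lost without chow replicate 1 or 3 or HFD replicate 2 or 3 (adjusted p up to 0.117). At 30 min Errfi1 (-0.37, adjusted p = 0.00562) and Erbb2 (0.73, adjusted p = 0.0426) were called without HFD replicates 4 to 6, and not with them. Erbb3 was higher on the HFD at 120 min, and its values are given with the insulin response. In all, 2, 3, 2 and 3 of 7 members were called at 15, 30, 60 and 120 min, where 24.4%, 37.3%, 22.4% and 28.2% of all genes tested were, so that these counts are near the background.

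Averaged over the basal state and the 4 times after insulin, which shared libraries with each comparison above, 4 members were lower and 1 higher on the 16-week HFD. Here 63% of all genes were called, so that a count of 5 of 7 is near the background. Klb fell by 0.81 ± 0.07 on the log2 scale (adjusted p = 6.73e-12), and Egfr by 0.60 ± 0.15 (adjusted p = 0.000812). Errfi1 and Fgfr4 each fell by 0.28 (SE 0.05 and 0.06, adjusted p = 1.79e-05 and 8.5e-05). These 4 calls held in 33 of 33 omissions of 1 library. Erbb2 rose by 0.30 ± 0.12 (adjusted p = 0.0355), a call that ended when trends with transcript length and GC content were removed (0.18, adjusted p = 0.182) and in 11 of the 33 omissions. Met, at 0.12 ± 0.07 (adjusted p = 0.104), and Erbb3, at -0.04 ± 0.10 (adjusted p = 0.772), were not called.

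The promoters of Klb, Egfr, Fgfr4 and Errfi1 are shown because these 4 genes were lower on the HFD in that average. RefSeq windows of 300 bases, 250 before the transcription start and 50 after it, were found for 6 of the 7 members in GRCm38.p6, and the 250 bases before the start are printed, 5′ to 3′ on the plus strand. Capitals mark a match, on either strand, to any of 8 short motifs named below. For Errfi1 the second of 2 RefSeq starts is shown, the window of the pair that holds any of these motifs. The regions are chr5:65348161-65348410 for Klb, chr11:16751953-16752202 for Egfr, chr13:55152568-55152817 for Fgfr4 and chr4:150854820-150855069 for Errfi1.
Klb: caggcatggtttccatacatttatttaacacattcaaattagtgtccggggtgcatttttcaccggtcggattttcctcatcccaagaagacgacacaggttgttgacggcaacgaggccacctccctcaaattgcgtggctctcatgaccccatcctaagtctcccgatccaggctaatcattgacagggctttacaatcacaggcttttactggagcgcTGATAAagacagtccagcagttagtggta
Egfr: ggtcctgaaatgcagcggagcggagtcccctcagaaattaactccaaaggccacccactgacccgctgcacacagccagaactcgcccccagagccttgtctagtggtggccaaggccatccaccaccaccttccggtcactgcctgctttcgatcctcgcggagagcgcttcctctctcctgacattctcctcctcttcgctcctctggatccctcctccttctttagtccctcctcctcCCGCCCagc
Fgfr4: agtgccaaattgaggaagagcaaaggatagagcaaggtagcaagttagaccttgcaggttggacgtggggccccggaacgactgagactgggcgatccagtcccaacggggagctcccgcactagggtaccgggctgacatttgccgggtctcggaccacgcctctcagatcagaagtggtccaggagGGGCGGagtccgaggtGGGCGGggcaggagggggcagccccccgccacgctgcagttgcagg
Errfi1: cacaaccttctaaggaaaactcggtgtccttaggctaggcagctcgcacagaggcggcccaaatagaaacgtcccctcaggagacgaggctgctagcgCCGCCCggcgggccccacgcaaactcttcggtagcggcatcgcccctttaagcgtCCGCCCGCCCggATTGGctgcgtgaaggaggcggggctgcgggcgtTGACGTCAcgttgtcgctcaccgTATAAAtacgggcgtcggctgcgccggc
The Klb window held 1 match, the GATA motif TGATAA at position -29 from the start, which 9.05% of the 32851 mouse promoter windows hold. Its GC content was 48.3%, against a median of 52.7% over all windows. The Egfr window held 1 GC box, GGGCGG, at -9, and 35.66% of windows hold at least 1. Fgfr4 held 4 GC boxes, at -62, -46, 24 and 39, the last 2 in the transcribed part that is not printed. The Errfi1 window had a cAMP response element, TGACGTCA, at -51 (1.79% of windows), a TATA box, TATAAA, at -28 (13.62%), a CCAAT box at -85 (37.41%) and GC boxes at -152, -97 and -93, of which the last 2 overlap. The forkhead motif GTAAACA (3.65% of windows) and the AAGGTCA motif of NR5A receptors (4.72%) matched in none of the 6 members' windows, and the E-box CACGTG (7.15%) matched in that of Met. The GC box occurred in the Egfr, Fgfr4 and Errfi1 windows and not in that of Klb, and a match or its absence describes only these letters.

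Feedback genes of the ERK pathway, which receptor tyrosine kinases switch on, included genes that were higher on the 16-week HFD in the basal state. Of 15 tested, 4 rose and 1 fell, a share near the 32.3% of all genes called in this comparison. Spry4, a Sprouty inhibitor of RAS-ERK signalling, averaged 24.0 ± 6.81 CPM on the HFD and 3.92 ± 0.695 CPM on chow (SD, n = 3 each; log2 2.62 ± 0.40, adjusted p = 7.44e-06). Dusp6, the phosphatase of ERK, averaged 59.8 ± 14.2 CPM on the HFD and 28.3 ± 8.15 CPM on chow (log2 1.08, adjusted p = 0.00125). Etv5, an ERK-induced transcription factor, and Phlda1 rose by 1.15 and 1.86 on the log2 scale. The median log2 fold change of the list was 0.50, against 0.02 over all genes.

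Related receptors changed in both directions on the 16-week HFD, with 3 of 8 higher and 1 lower, where 32.3% of all genes were called. Fgfr3 (log2 0.97 ± 0.15, adjusted p = 5e-06), Fgfrl1, a decoy-like FGF receptor without a kinase (0.50, adjusted p = 0.00128), and Erbb4, the other neuregulin receptor, rose. Erbb4 averaged only 2.36 ± 1.23 CPM on the HFD and 0.477 ± 0.0549 CPM on chow (log2 2.30 ± 0.49, adjusted p = 0.000404). Fgfr1, which pairs with beta-Klotho in the FGF21 receptor, averaged 6.74 ± 0.836 CPM on the HFD and 15.3 ± 1.17 CPM on chow and fell by 1.18 ± 0.26 (adjusted p = 0.00057). Thus Klb and Fgfr1 were both lower, and Fgfr4 was not called in this comparison.

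The ligands were measured in the same livers, though several act from other organs. Of 7 ERBB ligands tested, 1 rose in the basal comparison, the neuregulin Nrg4 (14.4 ± 1.08 CPM on the HFD and 7.97 ± 1.03 CPM on chow, log2 0.86, adjusted p = 0.0379). Egf averaged 0.623 to 1.39 CPM and Nrg1 0.0673 to 0.569 CPM over the 14 groups. Of the HGF family and its activators, 3 of 9 rose, namely Hgfac, the protease that activates HGF (236 ± 51.9 CPM on the HFD and 87.6 ± 18.6 CPM on chow, log2 1.43 ± 0.20, adjusted p = 2.1e-06), the protease hepsin, Hpn (log2 0.43), and urokinase, Plau (log2 0.88). Hgf itself averaged 6.52 to 15.9 CPM over the groups and was not called in the basal comparison. It was higher on the 16-week HFD at 60 min (log2 1.02, adjusted p = 0.0214) and in the average of the 5 times (0.48, adjusted p = 0.00301), and lower with metformin over the mean of the diets (-0.52, adjusted p = 0.0283). Fgf15, made in the ileum, had 0 reads in all 45 libraries, which allows up to 0.0609 to 0.173 CPM in a library (3 reads, counting error only). Of the FGF ligands tested, Fgf1 rose by 0.77 on the log2 scale (adjusted p = 0.00428), and Fgf21, the liver's fasting hormone, was not called in the basal comparison. In the average of the 5 times Fgf21 was lower on the 16-week HFD (-0.79, adjusted p = 0.00933) and Fgf1 higher (0.55, adjusted p = 2.63e-06).

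Downstream of these receptors, the sterol hydroxylase Cyp8b1, which sets the share of cholic acid among bile acids, averaged 366 ± 86.2 CPM on the 16-week HFD and 1131 ± 128 CPM on chow. It fell by 1.63 ± 0.36 on the log2 scale (adjusted p = 0.000666) and was the 1 of 4 bile acid genes called. In the same comparison, where 32.3% of all genes were called, 3 of 14 adaptor genes rose and 4 fell, led by Sos1, the RAS exchange factor (log2 -0.60), Crk (-0.47) and Grb14, an inhibitory adaptor of the insulin receptor (-0.58), and by Pik3r1, the regulatory subunit of PI3K (0.85). Among 16 genes of receptor degradation and dephosphorylation 2 rose, including the phosphatase Ptprj (log2 0.52), and 3 fell, including Stam2 (-0.34) and the phosphatase Ptpn2 (-0.31), a share near that background.

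Other cell types moved with diet as well. Over the average of the 5 times, 6 of 7 endothelial markers, 6 of 7 macrophage markers and 5 of 7 stellate cell markers were higher on the 16-week HFD, where 63% of all genes were called. A further stellate cell marker, Dcn, fell (log2 -0.29, adjusted p = 0.000384). Of 7 hepatocyte markers 4 were lower and 2 higher, of 5 cholangiocyte markers 2 were lower and 1 higher, and 1 of 3 adipocyte markers, Cfd, was higher (3.55, adjusted p = 3.52e-08). In the basal state the summed endothelial markers were 220 to 373 CPM on the HFD and 203 to 297 CPM on chow, the macrophage markers 222 to 423 CPM and 184 to 345 CPM, and the hepatocyte markers 78173 to 98317 CPM and 83303 to 90019.6 CPM. No marker of these 3 lists was at 0 in all libraries of a group. Of 5 skeletal muscle markers 4 were lower on the HFD in the basal state, where 32.3% of all genes were called. Their sums were 0.0441 to 0.138 CPM on the HFD, where 2 were at 0 in all 3 libraries. On chow they were 137, 0.587 and 0.159 CPM in replicates 1 to 3, so that the chow level rested mostly on replicate 1. Of 8 pancreatic acinar markers, from tissue that adjoins the liver, 0 were called in the basal state. Their sums were 1429, 601 and 222 CPM on chow and 1.75, 133 and 1.76 CPM on the HFD, without overlap. Among them 1 was at 0 in all 3 HFD libraries. At 15 min after insulin the sums were 119.8 to 2160.2 CPM on chow, and 9.24, 4.8 and 15313 CPM on the HFD. In whole liver, fewer cells of a type and less RNA per cell cannot be told apart, and the part of these cells in the changes of the members was not tested.

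After insulin on chow, Erbb3 was lower and Fgfr4 higher than in basal livers. Erbb3 measured 117, 116 and 115 CPM in basal livers, 91.4, 103 and 101 CPM at 15 min, 79.6, 86.7 and 93.4 CPM at 30 min, 48.7, 74.9 and 68.9 CPM at 60 min, and 46.7, 38.3 and 31.6 CPM at 120 min. Each later group lay below the basal libraries without overlap, and the mean was lower at each time than at the time before. At 120 min Erbb3 was 0.336 of the basal level, a log2 fold change of -1.57 ± 0.23 (adjusted p = 7.83e-05; 1.28e-08 to 0.00248 over all alternatives). At 60 min it was -0.85 ± 0.23 and just missed the threshold (adjusted p = 0.0513; 0.0148 to 0.365 over the alternatives), and at 15 and 30 min -0.23 and -0.42, not called.

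Fgfr4 measured 35.2, 31.4 and 34.4 CPM in basal livers, 36.2, 38.3 and 29.7 CPM at 15 min, 43.6, 40.8 and 37.2 CPM at 30 min, 53.6, 43.9 and 47.2 CPM at 60 min, and 40.8, 53.5 and 52.5 CPM at 120 min. From 30 min on, the libraries no longer overlapped those of basal livers. Fgfr4 rose by 0.52 ± 0.13 on the log2 scale at 60 min (adjusted p = 0.0346) and by 0.54 ± 0.13 at 120 min (adjusted p = 0.0109). The 60-min call held in 1 of 6 omissions, being lost without any 1 of the basal libraries or 60-min replicate 1 or 3 (adjusted p up to 0.255), and also with the length and GC trends removed (0.38, adjusted p = 0.158). The 120-min call was lost without basal replicate 2 or 120-min replicate 2 or 3 (adjusted p up to 0.0792) and on the authors' normalized values (0.42, adjusted p = 0.0508).

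The members called on chow were thus 0 of 7 at 15 and 30 min, 1 at 60 min and 2 at 120 min. Of all genes tested, 1.13%, 0.0711%, 1.39% and 5.08% were called at these times. At 15 and at 30 min, 0 members had an unadjusted p below 0.05 in edgeR and DESeq2 called 0. In 1 F test over the 4 times, which called 4.83% of all genes, Erbb3 (adjusted p = 0.000372) and Fgfr4 (adjusted p = 0.00938) were called and the other 5 were not. At 120 min the log2 fold changes of Errfi1, Met and Klb were -0.06 to 0.08. At 15 min Klb measured 40.6, 42.9 and 38.1 CPM, against 46.2, 51.4 and 52.9 CPM in basal livers, without overlap and not called (log2 -0.31, 95% interval -0.63 to 0.02, adjusted p = 0.566). Egfr reached 488, 453 and 259 CPM at 30 min, against 216, 241 and 291 CPM in basal livers, a log2 fold change of 0.68 with a 95% interval of -0.02 to 1.39 (adjusted p = 0.675).

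**Figure D3:**
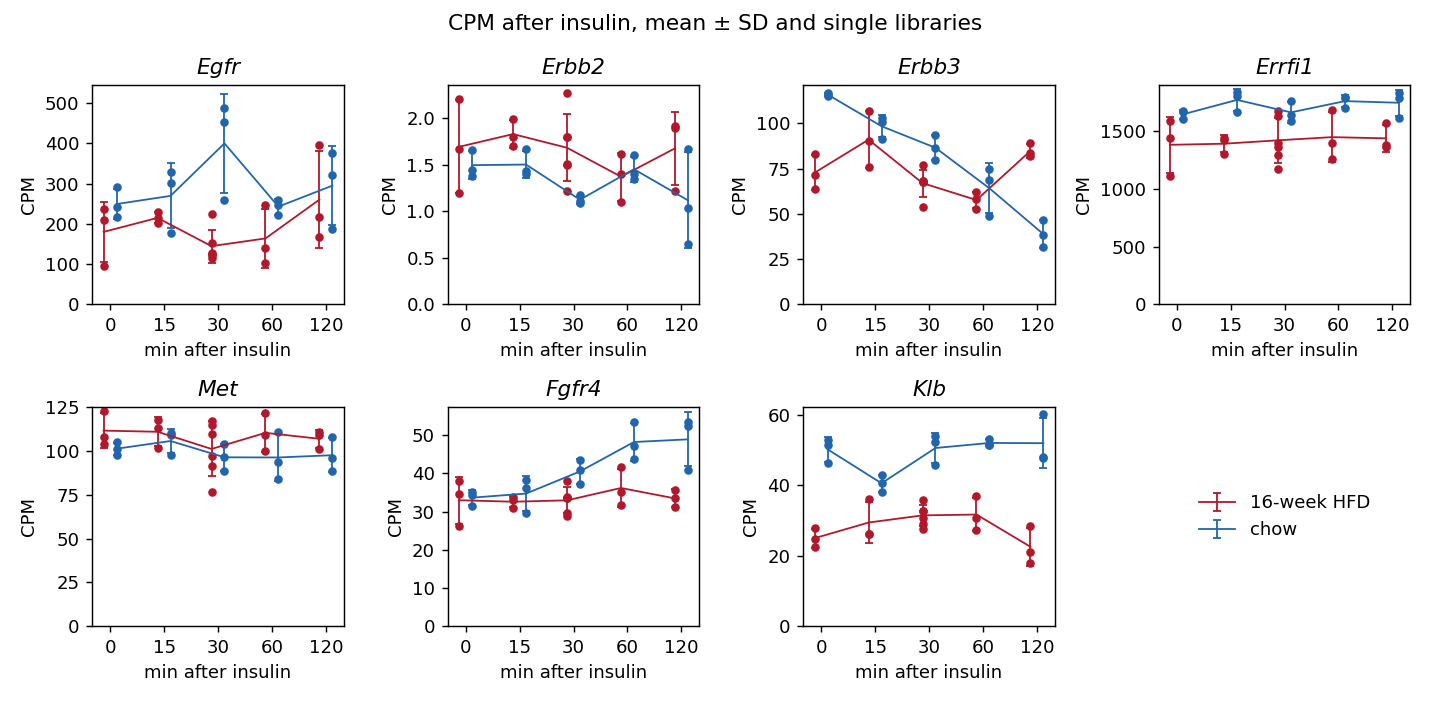
CPM of each gene by minutes after insulin, 16-week HFD in red and chow in blue, with the mean ± SD and a point for each library; time 0 is basal, and times are evenly spaced along the x axis. On chow Erbb3 goes down to 38.9 CPM at 120 min while Fgfr4 goes up to 48.9 CPM, and on the 16-week HFD neither line shows that course.

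On the 16-week HFD none of the 7 members was called after insulin, at 15, 30, 60 or 120 min. Of all genes tested, 0%, 3.55%, 0.00711% and 0% were called there by edgeR, and DESeq2 called 4, 967, 21 and 8 genes, with 0 members at each time. At 30 min the 500 genes called by edgeR became 1744 without replicates 4 to 6 of that group, 28 when only the groups compared were fitted, and 0 without the first basal library of this diet together with the first metformin library, with 0 members called in each case. The genes with an unadjusted p below 0.05 numbered 742, 3245, 1031 and 1176, among them 1 member at 30 and at 60 min, Klb in both cases. Klb averaged 31.4 CPM at 30 min and 25.0 CPM in basal livers, a log2 fold change of 0.33 ± 0.14 (adjusted p = 0.157). Erbb3 averaged 72.8 ± 9.79 CPM in basal livers, 91.0 ± 15.5 at 15 min, 67.1 ± 7.39 at 30 min, 57.7 ± 4.61 at 60 min and 84.8 ± 3.76 CPM at 120 min (SD, n = 3, and 6 at 30 min). Fgfr4 stayed between 32.6 and 36.2 CPM on average at all 5 times. The F test over the 4 times called 2.34% of all genes and 0 members, with 2 members, Erbb3 and Klb, at an unadjusted p below 0.05.

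The response of Erbb3 to insulin differed between the diets. At 120 min the log2 fold change on the 16-week HFD exceeded that on chow by 1.79 ± 0.33 (SE; adjusted p = 0.0082), and Erbb3 was the 1 member of 7 called in this comparison, where 0.839% of all genes were called. The difference was 1.66 to 1.95 over the alternatives (adjusted p 3.96e-05 to 0.0369), and it was called in 12 of 12 omissions of 1 library. The diet difference in Erbb3 at 120 min was opposite in sign to that in basal livers, with 83.7, 81.8 and 89.0 CPM on the 16-week HFD against 46.7, 38.3 and 31.6 CPM on chow. The groups did not overlap, and Erbb3 was 2.18-fold higher on the HFD at that time (log2 1.12 ± 0.23, adjusted p = 0.00055). In 1 F test over the 4 times, which called 0.263% of all genes, Erbb3 was also the 1 member called (adjusted p = 0.0311).

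The insulin response of Fgfr4 was not shown to differ between the diets. Its difference at 120 min was -0.52 ± 0.19 on the log2 scale (95% interval -0.90 to -0.14, unadjusted and excluding 0, adjusted p = 0.17). For the differences at 15, 30 and 60 min edgeR called 0 members, and 0.00711%, 0% and 0% of all genes (at 30 min 35 genes and 0 members without HFD replicates 4 to 6). DESeq2 called 12, 112 and 87 genes and 0 members, and 848, 2022 and 1810 genes had an unadjusted p below 0.05, among them 1 member each, Klb, Egfr and Fgfr4 in that order.

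**Figure D4:**
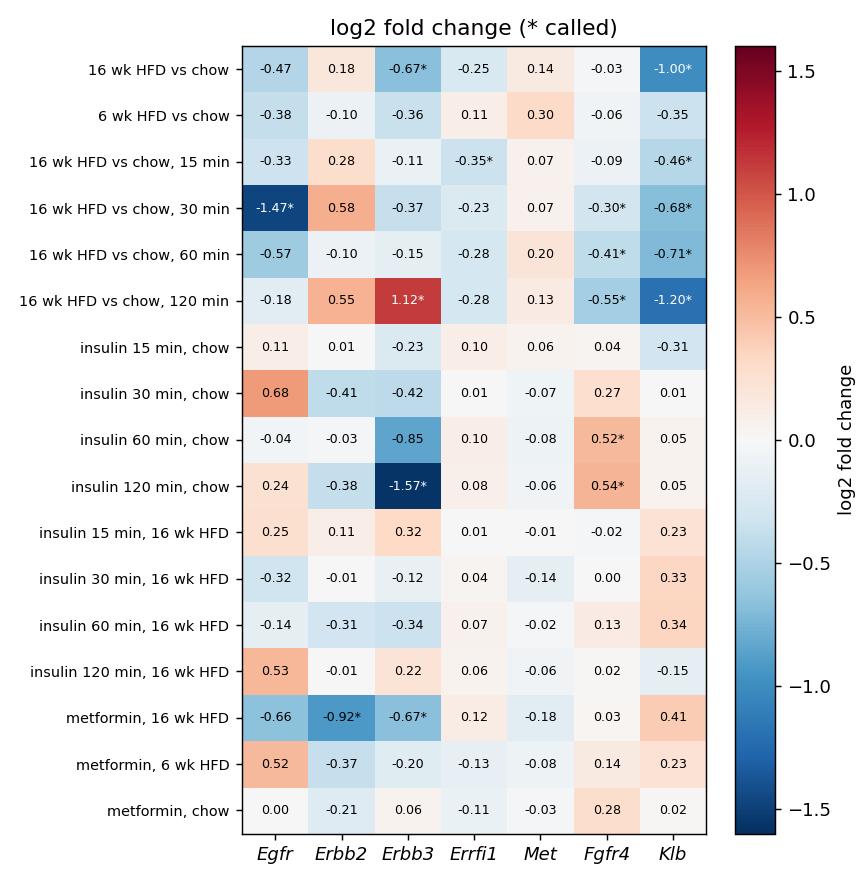
Fitted log2 fold changes of the 7 genes (columns) in 17 comparisons (rows), red for higher and blue for lower, with an asterisk where the adjusted p was below 0.05. Klb is blue in all 6 rows that set an HFD against chow, and Erbb3 at 120 min after insulin is at 0.22 on the 16-week HFD and at -1.57 on chow.

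Genes of the surrounding pathways were also called after insulin on chow. Of all genes tested, 1.13%, 0.0711%, 1.39% and 5.08% were called at 15, 30, 60 and 120 min. At 15 min the pathway calls were 1 of 15 ERK feedback and early genes, 1 of 8 related receptors and 1 of 4 bile acid genes. They were Fos, an immediate early gene (8.20 ± 3.88 CPM after insulin and 1.06 ± 0.512 CPM basal, log2 3.06, adjusted p = 0.0049), Fgfr3 (0.71, adjusted p = 0.00799), and Cyp7a1, the rate-limiting enzyme of bile acid synthesis, which fell by 2.53 ± 0.61 (adjusted p = 0.0277). Dusp6 rose at 30 min, with 75.2 ± 7.94 CPM after insulin and 28.3 ± 8.15 CPM basal (log2 1.41, adjusted p = 0.01). Rhbdf2, a partner of the sheddase that frees EGFR ligands, rose by 0.98 at 60 min (adjusted p = 0.0203) and 1.10 at 120 min (adjusted p = 0.00293). At 120 min Pik3r1 (0.89) and Fgfrl1 (0.47) rose, while Plau (-1.33) and Lrig3, of the LRIG family of receptor regulators (-0.48), fell. Of the lists, Fgfrl1 was also the gene whose response at 120 min differed between the diets (log2 -0.79 ± 0.17, adjusted p = 0.015).

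Cell type markers were set beside the fall of Erbb3. At 120 min on chow the summed cholangiocyte markers were 33.3 to 47.8 CPM, against 34.7 to 45.7 CPM in basal livers, and the hepatocyte markers 89822 to 148176 CPM against 83303 to 90019.6 CPM. The stellate cell markers were 243 to 291 CPM at 120 min and 299.8 to 310 CPM basal, and pancreatic acinar markers, from tissue that adjoins the liver, 11.3 to 1959.7 CPM and 222 to 1429 CPM. None of these markers was at 0 in all 3 libraries of either group. Their part in the result was not tested.

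Metformin did not lead to a call for any member on chow or on the 6-week HFD. There 1.94% and 3.17% of all genes were called by edgeR, and DESeq2 also called 0 members. On chow 1 member had an unadjusted p below 0.05, Fgfr4, with 37.6, 46.7 and 38.7 CPM under metformin against 35.2, 31.4 and 34.4 CPM in basal livers (log2 0.28 ± 0.13, adjusted p = 0.273), and on the 6-week HFD 0 did. Klb on chow was 46.7, 57.1 and 48.9 CPM with metformin, against 46.2, 51.4 and 52.9 CPM without (log2 0.02, 95% interval -0.31 to 0.35).

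On the 16-week HFD metformin went with lower Erbb2 and Erbb3, in libraries that also differed in their trend with transcript length. Erbb2 measured 0.52, 1.18 and 0.951 CPM under metformin (9, 23 and 19 reads), against 1.20, 1.67 and 2.20 CPM in basal livers (26, 43 and 50 reads), and fell by 0.92 ± 0.30 on the log2 scale (adjusted p = 0.0202). Erbb3 measured 18.0, 55.4 and 64.1 CPM under metformin, against 63.6, 83.1 and 71.7 CPM in basal livers, and fell by 0.67 ± 0.23 (adjusted p = 0.0283). The groups just touched for Erbb3 and did not overlap for Erbb2. These were 2 of 7 members, near the background of 28.4% of all genes called. That background itself moved, with 3992 genes called in all, 14 when only the groups compared were fitted and 2109 without the first library of both groups. Klb, at 21.4, 41.1 and 36.9 CPM under metformin against 22.5, 24.6 and 27.8 CPM in basal livers, had a log2 fold change of 0.41 ± 0.16 that was not called (adjusted p = 0.0572; 0.0487 with DESeq2).

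The first metformin library on the 16-week HFD stood apart in these values. In that library gene levels relative to the mean of all libraries fell with transcript length more than in any other (Spearman's rho -0.61 across genes, which are not independent; -0.40 to -0.13 in the other 8 metformin libraries, and -0.22, 0.07 and 0.15 in the basal libraries of this diet). Without it Erbb2 was at -0.66 (adjusted p = 0.178), Erbb3 at -0.28 (adjusted p = 0.288) and Klb at 0.65 (adjusted p = 0.00569). With length and GC trends removed they were at -0.61 (adjusted p = 0.143), -0.51 (adjusted p = 0.103) and 0.52 (adjusted p = 0.0199). Erbb2 also lost its call without basal replicate 3 (-0.69, adjusted p = 0.138), and Erbb3 without basal replicate 2 or 3 (adjusted p = 0.124 and 0.0612). Neither call held once this library or the trend was taken out.

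Marker genes moved in the same comparison. On the 16-week HFD, 4 of 7 hepatocyte markers were higher with metformin, and 4 of 7 endothelial and 4 of 7 stellate cell markers were lower. Of all genes tested, 28.4% were called here. The summed endothelial markers were 166 to 219.9 CPM with metformin and 220 to 373 CPM in basal livers. The stellate cell sums overlapped, at 207 to 289 CPM and 193 to 425 CPM. The hepatocyte sums were 109828 to 127823 CPM and 78173 to 98317 CPM, and none of these markers was at 0 in all libraries of a group. Of the pathway lists, Fgf21 rose by 1.64 ± 0.60 on the log2 scale (17.2 ± 6.53 CPM with metformin and 5.52 ± 0.146 CPM basal, adjusted p = 0.0376), and Cyp8b1 by 1.02 and Nr0b2, the bile acid-induced repressor SHP, by 1.05. Tgfa, an EGFR ligand, fell by 0.59, and Igf1r by 0.91. The part of the markers and of the length trend in these changes was not tested.

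Over the mean of the 3 diets, 1 member, Erbb2, fell with metformin (log2 -0.50 ± 0.17, adjusted p = 0.0227), where 31.2% of all genes were called. It lost its call with the trends removed (-0.34, adjusted p = 0.137), and without any 1 of these libraries: replicate 1 with metformin on the 16-week HFD, basal replicate 3 on that diet, and replicate 2 with metformin on chow or on the 6-week HFD (adjusted p up to 0.0661). The metformin response on the 6-week and on the 16-week HFD against that on chow gave 0 calls among members, where 0.0427% and 4.96% of all genes were called by edgeR. DESeq2 also called 0 members in both, and the members with an unadjusted p below 0.05 numbered 0 on the 6-week and 1 on the 16-week HFD, Erbb3 (log2 -0.72 ± 0.32, adjusted p = 0.181).

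Among mice on metformin, the diets differed in 3 of 7 members at 16 weeks, where 20.4% of all genes were called. Egfr measured 66.4, 163 and 113 CPM on the HFD against 289.8, 248 and 209 CPM on chow (log2 -1.13, adjusted p = 0.0205), and Erbb3 18.0, 55.4 and 64.1 CPM against 106, 127 and 128 CPM (log2 -1.39, adjusted p = 9.14e-05). Klb measured 21.4, 41.1 and 36.9 CPM on the HFD against 46.7, 57.1 and 48.9 CPM on chow (log2 -0.62, adjusted p = 0.00694). None of these groups overlapped. Their trends with transcript length differed too, with Spearman's rho of -0.61, -0.27 and -0.34 on the HFD and -0.22, -0.19 and -0.13 on chow. Erbb3 kept its call in 6 of 6 omissions, Egfr lost it without HFD metformin replicate 1 (-0.84, adjusted p = 0.163) or chow metformin replicate 1 (adjusted p = 0.073), and Klb without HFD metformin replicate 1 (-0.37, adjusted p = 0.118). Fitted on these 6 libraries alone, 0 members were called, where 285 genes were called in place of 2871. On the 6-week HFD 0 of 7 members were called against chow under metformin, where 4.43% of all genes were, with Erbb3 the 1 member at an unadjusted p below 0.05 (-0.61, adjusted p = 0.126) and 0 called by DESeq2.

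Across the 14 group means on the log2 scale, Errfi1 and Klb ran most alike (Pearson's r = 0.78), followed by Fgfr4 and Klb (r = 0.68), and Met and Fgfr4 ran most nearly opposite (r = -0.57). By Spearman's rho Fgfr4 and Klb came first (0.8) and Errfi1 and Klb next (0.73). Met and Fgfr4 then tied at -0.6 with Erbb2 and Fgfr4 and with Erbb2 and Klb. Among 9329 other genes with a mean of at least 5 CPM, Klb was most like Glce (r = 0.972), Agtr1a and Hnrpdl (r = 0.96 each). Erbb3 was most like Mcc (r = 0.905), Arhgap29 (0.882) and 4921513D23Rik (0.874), and Egfr like Mau2 (0.889), Gmeb2 (0.864) and Fgfr1 (0.859). Errfi1 was most like Hiat1 (0.951) and Tspan12 (0.925), Fgfr4 like Axin1 (0.906), Smurf1 (0.886) and Irf2bp2 (0.88), and Met like Azin1 (0.857), Ppara (0.852) and Slc39a9 (0.832). For the genes named for Fgfr4, Spearman's rho was 0.771, 0.675 and 0.618 in that order. Erbb2 was most like Gltscr1 (0.967), Fzd4 (0.913) and Ssh2 (0.906). These are descriptions over 14 points that share libraries, diets and the trends with length, and carry no test.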

How the data were processed

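Polyadenylated RNA of whole liver was sequenced in pairs of 40 to 50 bases with an unstranded kit, per the labels' protocols. The submitters' processing notes name the build mm9, the aligner TopHat 1.4.0 and the counter HTSeq. The deposited raw read count per gene was used for every result. The authors' deposited normalized signal, scaled with CQN and DESeq2 in separate chow and 16-week HFD tables per the file headers and names, served as an alternative (limma 3.58.1 on log2 of the value plus 1).

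Genes were filtered with filterByExpr (minimum count 10), scaled with TMM and tested in edgeR 4.0.16 by quasi-likelihood F tests in 1 fit of all 45 libraries with 1 term per group. P-values were adjusted by Benjamini-Hochberg over the 14067 genes in each of 28 comparisons, and a gene was called below 0.05. The statistics were checked on simulated counts. CPM use the scaled library sizes, and no 2 libraries were identical. Precision is limited by 3 libraries per group and by counting error for Erbb2.

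The members and gene lists were chosen with earlier results of these data known. Named genes are the members, up to 4 list genes with the smallest adjusted p among those called in a comparison, the ligands Egf, Hgf, Fgf15, Fgf21, Nrg1 and Nrg4, and the 3 genes most correlated with each member, of which 1 is not reported here. Other genes set beside a result, such as Fgfr1, were named for their known role in it. Alternatives were DESeq2 1.42.0 with its own scaling, RLE scaling, no filter, a replicate block, only the groups compared, removal of length and GC trends, and omission of libraries. The labels number replicates without saying that a number marks a shared animal or day. Same-numbered libraries deviated together, with every correlation above 0.1, in metformin against basal livers on the 6-week HFD (0.41, 0.16 and 0.3) and on the 16-week HFD (0.24, 0.15 and 0.12), and in no other pair of groups compared directly. Whether these libraries were paired cannot be settled by that criterion. The 3 F tests over 4 times and the omission of the first library of both 16-week HFD groups without insulin were chosen after seeing the data. Sequences are RefSeq promoter windows of GRCm38.p6, a build other than that of the counts.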

Additional observations from a re-analysis of the deposited data

Results flagged for a closer look

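Among the 6 livers on the 16-week HFD taken 30 min after insulin, 1 library (replicate 2) had an Egfr level of 225 CPM, against 116 to 152 CPM in the other 5. Its gap to the next library was 0.67 of the whole range, above Dixon's critical value of 0.625 for 6 samples. Egfr was the 1 of 7 genes with such a library in this group. For 1 gene, chance alone gives such a gap in about 1 of 20 groups, and more often where 7 genes are screened. The test also treats the 6 libraries as 1 set, although they fell into 2. Replicate 2 had summed pancreatic acinar markers of 5924 CPM, against 1.43 to 314 CPM in the other 5, and macrophage markers of 1048 CPM, against 397 to 738 CPM. The part of these cells in its Egfr level was not tested. All 6 libraries lay below the lowest chow library of 259 CPM, and the diet difference at 30 min was called with any 1 library left out (adjusted p = 7.58e-05 to 0.0041, edgeR).

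The Erbb3 response to insulin at 120 min differed between the diets by 1.79 on the log2 scale, 16-week HFD minus chow, in a test of the difference itself (adjusted p = 0.0082, edgeR). The response was 0.22 ± 0.23 on the 16-week HFD and -1.57 ± 0.23 on chow (SE). All 3 chow libraries at 120 min, at 31.6 to 46.7 CPM, lay below the 63.6 to 83.1 CPM of basal livers on the 16-week HFD.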

How the results depend on the processing

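No change of a member that was called, with all libraries or under an alternative, had the opposite sign in another. The 4 lower members in the diet average, Klb in the basal diet comparison, and Erbb3 at 120 min on chow and in its difference between the diets were called under every alternative run. With length and GC trends removed, 22 calls of members over all comparisons held and 7 were lost, not all of which are named here. Counts of members called, out of 7, that moved by more than 1.5 times were as follows. On chow at 60 min it was 1, and 2 with DESeq2, RLE scaling or the replicate block (Erbb3 added, adjusted p = 0.0335 with the block). On chow at 120 min it was 2, and 1 on the authors' normalized values. For the 16-week against the 6-week HFD it was 2, and 1 with no filter, the replicate block (Errfi1 lost, adjusted p = 0.0554), trends removed with or without the block, or only the groups compared. Fitting only the groups compared also gave 3 in place of 0 for the 6-week HFD against chow, 0 in place of 3 between the diets under metformin, 1 in place of 2 between the diets at 60 min, and 0 in place of 2 for metformin on the 16-week HFD. In that order these fits called 2195, 285, 1807 and 14 of all genes, in place of 1549, 2871, 3155 and 3992. The replicate block, 1 term over all groups, changed no other call, the metformin comparisons on the 6- and 16-week HFD included. Of all 91 pairs of groups, same-numbered libraries deviated together, with every correlation above 0.1, in 5, and every correlation was below -0.1 in 4 (median -0.01). The criterion was met about as often in either direction, so a pairing was neither shown nor excluded by it. For metformin on the 16-week HFD, removing the trends, with or without the block, or omitting the first library of both groups gave 1, which was Klb. For the mean of the diets these settings gave 2 in place of 1, which were Klb and Fgfr4 with the trends removed and Erbb2 and Klb without the libraries. Omitting those libraries gave 1 in place of 3 between the diets under metformin. Smaller moves with DESeq2 were 4 in place of 3 between the diets at 30 and at 120 min (Errfi1 added in both) and 3 in place of 2 for metformin on the 16-week HFD (Klb added). Without replicates 4 to 6 at 30 min on the 16-week HFD, the count between the diets was 4 in place of 3.

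With 1 library left out, the counts ranged over 1 to 2 for the basal 16-week HFD against chow (2 with all libraries), 0 to 2 for the 16-week against the 6-week HFD (2), 1 to 3 between the diets under metformin (3), 0 to 2 on chow at 60 min (1) and 1 to 2 at 120 min (2). Between the diets they were 0 to 1 at 15 min (2), 2 to 5 at 30 min (3), 1 to 3 at 60 min (2), 3 to 4 at 120 min (3) and 4 to 6 in the average (5). For metformin they were 0 to 3 on the 16-week HFD (2), 0 to 2 in the mean of the diets (1) and 0 to 1 for the 16-week HFD against chow (0). Each omission also leaves fewer libraries, and the cause of these moves was not tested. Depth limits Erbb2 most, at 9 to 76 reads. The normalized values cover the insulin time courses only and were compared within each diet.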
